A study of Mus musculus with 12 samples.

Results

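The miR-29 family was followed in the hippocampus of mice with the P2X7 receptor (wild-type, wt) and without it (P2rx7-/-) through every assay whose miRNA number is exactly 29 and whose name carries no mark for a passenger strand. This rule, which used names and no measured value, found 3 assays, miR-29a, miR-29b and miR-29c, among the 619 miRNA assays of the OpenArray, a plate on which many TaqMan qPCR reactions are read in parallel, each giving the cycle (Ct) at which its signal passes a threshold. The assays carry a human prefix in the table (hsa-miR-29a, hsa-miR-29b and hsa-miR-29c). Of these 3 assays, miR-29b and miR-29c were analyzed further because each of the 12 samples gave them a Ct under 28. In all, 335 miRNA assays met this condition, and miR-29a was not among them.

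The study asked how loss of the P2X7 receptor, an ATP-gated ion channel best known from microglia, alters hippocampal miRNAs at rest and after status epilepticus. Both genotypes were studied as control and post-SE (after status epilepticus) mice, which gave 4 groups of 3 samples. All mice were C57BL/6 males, 8 weeks old in the labels and 8 to 12 weeks in the methods, and the knockout lacks exon 2 of P2rx7 in every cell of the body. Post-SE mice received 0.3 µg kainic acid (KA) into the amygdala and control mice vehicle. All 4 groups were given lorazepam at 6 mg/kg after 40 min, so the controls were not drug-free, and tissue was taken at 8 h. RNA from 2 hippocampi of the injected side, from separate animals, was combined into each sample, so the spread between samples is that between pools and hides differences between single mice.

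miRNAs act as guides for the Argonaute silencing complex, which pairs the seed of the guide with matching sites in mRNAs and lowers their translation and stability. The members of the miR-29 family are cut from paired hairpins at separate loci, are abundant in the mature brain, in glia as well as neurons, and are known to target collagens, de novo DNA methyltransferases and, in neurons, pro-apoptotic BH3-only genes. From each hairpin the 3′ strand is the usual guide and the 5′ strand, the passenger, is mostly degraded.

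The mature strands are shown because the family is defined by them, with the seed (bases 2 to 8) in capitals, 5′ to 3′, from RefSeq for GRCm38.p6. The first 3 lines are the guides and the last 3 are the passengers of the miR-29b and miR-29c hairpins, against which the guides were set.
mmu-miR-29a-3p: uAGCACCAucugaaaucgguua
mmu-miR-29b-3p: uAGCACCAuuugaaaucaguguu
mmu-miR-29c-3p: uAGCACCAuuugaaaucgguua
mmu-miR-29b-1-5p: gCUGGUUUcauauggugguuua
mmu-miR-29b-2-5p: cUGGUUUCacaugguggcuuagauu
mmu-miR-29c-5p: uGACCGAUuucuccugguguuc

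The 3 guides share 1 seed, and among the 1679 mature mouse miRNA names in the RefSeq table no other name carried it. Counted from 1 at the 5′ end, the guide of miR-29a differs from that of miR-29c by the single substitution C10U. The guide of miR-29c differs from that of miR-29b by G18A, U21G and A22U, and miR-29b is 1 base longer. How far each assay also reads the other members was not tested. The guide of miR-29a lies at chr6:31062673-31062694 on the minus strand, in the hairpin gene Mir29a, 275 bases from the hairpin of Mir29b-1. The guide of miR-29c lies at chr1:195037600-195037621 on the plus strand, in Mir29c, 426 bases from Mir29b-2. The same miR-29b guide is cut from Mir29b-1 at chr6:31063025-31063047 and from Mir29b-2 at chr1:195037091-195037113, so the miR-29b assay cannot tell the loci apart.

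The table held a Ct for 470 to 538 of the 619 miRNA assays in each sample, and all listed Ct values lay between 10 and 28. Ct values of 1 sample stood apart, since those of wt control replicate 1 had a median Spearman correlation of 0.725 with the other samples, against 0.893 to 0.962 elsewhere. Differences and fold changes of the guides that rest on it are also given without it. Levels are stated as −ΔCt, the mean Ct of the 335 analyzed assays in a sample minus the Ct of the assay, on a log2 scale on which 1 unit is a doubling of RNA relative to the mean of the analyzed assays. In these bulk samples, fewer cells of a type and less RNA per cell cannot be told apart.

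miR-29a was the member read in the fewest samples. The miR-29a assay had a Ct in 3 of 12 samples, at 17.1 in wt control replicate 1, 10.7 in P2rx7-/- control replicate 1 and 10.1 in P2rx7-/- post-SE replicate 2. The other 9 samples had no Ct, and whether such a cell stands for a failed reaction or for a Ct below the lowest listed value is not given in the sources used here. Such gaps were frequent at the low end of the scale, where a low Ct means much RNA. Of 47 miRNA assays whose lowest Ct was below 11, 37 (78.7%) had no Ct in at least 1 sample, against 111 of 292 (38.0%) of those whose lowest Ct was from 14 to below 20. In the P2rx7-/- samples with a value, the Ct of miR-29a minus that of miR-29c was −1.45 and −1.74 cycles, whereas in wt control replicate 1 this difference was 6.35 cycles. No group of 3 could be formed from these values, and no comparison was made for miR-29a.

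miR-29c was among the most abundant analyzed miRNAs by this scale, with a mean Ct of 11.8 that ranked 4 of 335 from the lowest, although assays were not corrected for amplification efficiency. The rank leaves out 37 of the 47 miRNA assays whose lowest Ct was below 11, since these had no Ct in at least 1 sample. In wt control samples the miR-29c level was 8.32, 7.38 and 7.41, and after status epilepticus it was 7.12, 7.44 and 7.70. In P2rx7-/- control samples the miR-29c level was 6.99, 7.14 and 5.02, and after status epilepticus 6.999, 7.25 and 6.30. P2rx7-/- control replicate 3 was the lowest of all 12 samples and wt control replicate 1 the highest. All P2rx7-/- control samples lay below all wt control samples, whereas the post-SE genotypes overlapped. The group means ran from 7.70 ± 0.53 (SD, n = 3) in wt control and 7.42 ± 0.29 in wt post-SE to 6.85 ± 0.49 in P2rx7-/- post-SE and 6.38 ± 1.19 in P2rx7-/- control. Samples of neighbouring groups in this order overlapped at every step.

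miR-29b was read later, with a mean Ct of 16.5 and rank 90 of 335, 4.72 ± 0.35 cycles (SD, n = 12) above miR-29c in the same sample. In wt control samples the miR-29b level was 3.33, 2.61 and 2.87, and after status epilepticus it was 2.51, 2.15 and 2.97. In P2rx7-/- control samples the miR-29b level was 2.39, 2.50 and 1.11, and after status epilepticus 1.78, 2.49 and 1.65. The lowest and the highest sample were those of miR-29c, and the 3 P2rx7-/- control samples again lay below the 3 wt control samples. The group means were 2.94 ± 0.36 (SD, n = 3) in wt control, 2.54 ± 0.41 in wt post-SE, 2.00 ± 0.77 in P2rx7-/- control and 1.98 ± 0.45 in P2rx7-/- post-SE, and samples of neighbouring groups in this order overlapped. Both wt groups stood above both P2rx7-/- groups in mean for miR-29b and for miR-29c.

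**Figure D1:**
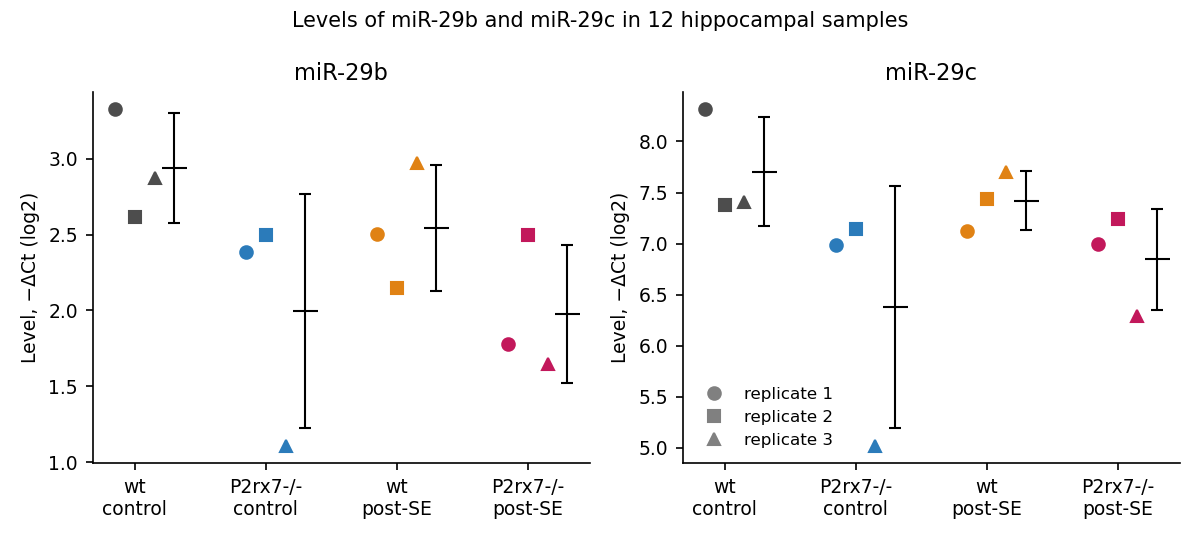
Level of miR-29b (left) and miR-29c (right) as −ΔCt on a log2 scale in the 4 groups. Points are samples, with the replicate number as symbol, and bars are the mean ± SD of 3 samples. P2rx7-/- control replicate 3 is the lowest point in both panels, at 1.11 and 5.02, and wt control replicate 1 the highest, at 3.33 and 8.32.

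The first comparison was of the genotypes without status epilepticus. Relative to the wt control average, the fold changes (FCs) of miR-29c in P2rx7-/- control samples were 0.610, 0.677 and 0.155, and those of the wt control samples themselves were 1.53, 0.801 and 0.815. Their average of 0.481 ± 0.284 (SD, n = 3) met the rule of the study's methods for down-regulation, an average FC below 0.6. For miR-29b the FCs were 0.683, 0.736 and 0.281, against 1.31, 0.799 and 0.955 in wt control samples, and the average of 0.567 ± 0.249 met the rule as well. Hence both analyzed members were called down-regulated, where the rule called 52 of all 335 analyzed miRNAs (15.5%) in this direction. The paper reported fewer down-regulated miRNAs for this comparison, so these are calls of the rule as applied here. Groups that did not overlap, lower in P2rx7-/- control samples, were found for 35 of the 335 (10.4%).

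The size of these calls depended on single samples. Without P2rx7-/- control replicate 3 the average FC was 0.645 for miR-29c and 0.711 for miR-29b, so neither member was called. Without wt control replicate 1, miR-29b was at 0.654 and miR-29c at 0.5997, and only miR-29c was called. With snoRNA135, a small nucleolar RNA on the plate, in place of the mean of the miRNAs for scaling, the average FC was 0.657 for miR-29c and 0.775 for miR-29b, so neither was called. This scaling put the median log2 difference of all 335 miRNAs at 0.44, against −0.02 with the mean of the miRNAs.

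On the log2 scale, the difference of miR-29c between P2rx7-/- control and wt control samples was −1.32 ± 0.56 (SE), with a 95% interval from −2.56 to −0.08. limma, a linear model fitted over all 335 miRNAs, gave an adjusted p of 0.615 (Benjamini-Hochberg). The difference of miR-29b was −0.94 ± 0.44 (SE), with an interval from −1.92 to 0.03 and an adjusted p of 0.615 by limma. In this comparison 20 of 335 miRNAs (5.97%) had an unadjusted p below 0.05 by limma and 0 (0%) an adjusted p below 0.05. The exact two-sided permutation test of 3 samples against 3 gave p = 0.1 for each member, the smallest value it can give. Of the 335 miRNAs, 7.16% had a difference as low as that of miR-29c or lower, and 13.1% as low as that of miR-29b or lower. Without wt control replicate 1 the differences were −0.999 for miR-29c and −0.73 for miR-29b, with an adjusted p of 0.982 by limma, and without P2rx7-/- control replicate 3 they were −0.63 and −0.49.

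After status epilepticus the genotypes overlapped. Relative to the wt post-SE average, the FCs of miR-29b in P2rx7-/- post-SE samples were 0.590, 0.967 and 0.538, with an average of 0.698 ± 0.234 (SD, n = 3). Those of miR-29c were 0.747, 0.886 and 0.459, with an average of 0.697 ± 0.218. Neither member met the rule, which called 15 of 335 miRNAs (4.48%) down-regulated here, and in both the genotypes overlapped, whereas 12 of the 335 (3.58%) lay lower without overlap. The miR-29b average was 0.571 without P2rx7-/- post-SE replicate 2, which would meet the rule. The log2 difference was −0.57 for miR-29b, with a 95% interval from −1.54 to 0.41, and −0.57 for miR-29c, with an interval from −1.81 to 0.67. The adjusted p by limma was 0.999 for each.

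The genotype difference itself was not shown to depend on status epilepticus. The interaction of genotype and treatment was 0.37 ± 0.62 (SE) on the log2 scale for miR-29b (adjusted p = 0.911 by limma) and 0.75 ± 0.79 for miR-29c (adjusted p = 0.851). It was 0.16 and 0.42 without wt control replicate 1, and −0.06 and 0.08 without P2rx7-/- control replicate 3. Averaged over the treatments, miR-29b was lower in P2rx7-/- samples by a difference of −0.75 ± 0.31 (SE), with an interval from −1.44 to −0.06, and miR-29c by −0.95 ± 0.40, with an interval from −1.82 to −0.07. An exact permutation test that exchanged genotypes within each treatment (400 arrangements, two-sided, smallest p 0.005) gave p = 0.02 for miR-29b and p = 0.01 for miR-29c. Neither passed the adjustment over all 335 miRNAs, at 0.558 for miR-29b and 0.335 for miR-29c, and 0 of the 335 did. Unadjusted, 18 of the 335 (5.37%) had an exact p below 0.05 and a lower level in P2rx7-/- samples.

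The averaged genotype difference kept its sign without any 1 of the 12 samples. It then ranged from −0.88 to −0.52 for miR-29b and from −1.14 to −0.60 for miR-29c on the log2 scale. Without wt control replicate 1 the difference was −0.65 for miR-29b and −0.79 for miR-29c, and the exact permutation p was 0.065 for both members. Without P2rx7-/- control replicate 3 the exact p was 0.045 for miR-29b and 0.03 for miR-29c. With snoRNA135 scaling the difference was −0.41 for miR-29b and −0.60 for miR-29c, and the exact permutation p was 0.205 and 0.195.

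Status epilepticus was compared with vehicle within each genotype. In wt mice the FCs of post-SE samples over the wt control average were 0.742, 0.580 and 1.02 for miR-29b, with an average of 0.782 ± 0.225 (SD, n = 3). For miR-29c they were 0.669, 0.832 and 0.998, with an average of 0.833 ± 0.164. Neither met the rule, which called 42 of 335 miRNAs (12.5%) down-regulated, and control and post-SE samples overlapped for both members. The log2 difference was −0.39 (95% interval from −1.37 to 0.58) for miR-29b and −0.28 (from −1.52 to 0.96) for miR-29c. Without wt control replicate 1 the average FC was 0.881 for miR-29b and 1.02 for miR-29c.

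In P2rx7-/- mice the FCs of post-SE samples over the P2rx7-/- control average were 0.862, 1.41 and 0.787 for miR-29b, with an average of 1.02 ± 0.34 (SD, n = 3). For miR-29c they were 1.53, 1.82 and 0.942, with an average of 1.43 ± 0.45, just under the limit of 1.5 for up-regulation that 60 of 335 miRNAs (17.9%) passed. The P2rx7-/- control average holds the low replicate 3, without which the FC of miR-29c was 0.896 and that of miR-29b 0.753. Without P2rx7-/- control replicate 1 or 2 or P2rx7-/- post-SE replicate 3 the FC of miR-29c was 1.75, 1.86 and 1.69, above the limit. The log2 difference was −0.02 (95% interval from −0.997 to 0.96) for miR-29b and 0.47 (from −0.78 to 1.71) for miR-29c. Averaged over the genotypes, the effect of status epilepticus was −0.21 ± 0.31 (SE) for miR-29b and 0.09 ± 0.40 for miR-29c, with exact permutation p-values of 0.48 and 0.825 and adjusted values of 0.944 and 0.984. Without wt control replicate 1 it was −0.14 for miR-29b and 0.21 for miR-29c.

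miR-29b and miR-29c moved together from sample to sample. Their levels had a Pearson correlation of 0.91 over the 12 samples, which share the scaling of a sample, and 99.6% of all pairs of the 335 miRNAs had a correlation as low or lower. It was 0.87 without P2rx7-/- control replicate 3 and 0.88 without wt control replicate 1. The difference of their Ct values, which needs no scaling, lay between 3.91 in P2rx7-/- control replicate 3 and 5.29 in wt post-SE replicate 2. The median correlation over all pairs of analyzed miRNAs was 0.00.

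**Figure D2:**
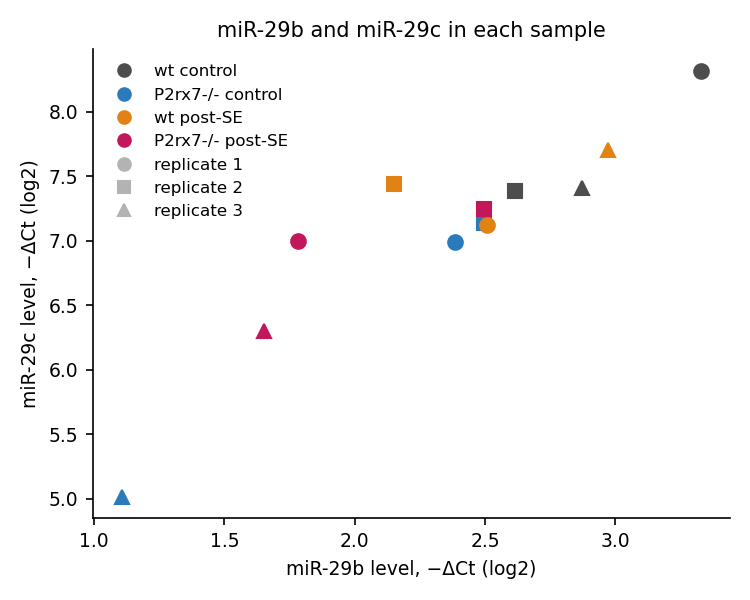
Level of miR-29c against that of miR-29b (both −ΔCt, log2) in the 12 samples, with the group as colour and the replicate number as symbol. The samples spread from P2rx7-/- control replicate 3 at the lower left to wt control replicate 1 at the upper right, and the correlation of 0.91 rests in part on these.

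Outside the family, the 5 assays most like each member over the 12 samples were listed. For miR-29c these were miR-98 (Pearson correlation 0.98), miR-369-3p (0.97), let-7e (0.97), miR-148a (0.96) and miR-181c (0.96). For miR-29b they were miR-148a (0.93), miR-369-3p (0.93), miR-19a (0.91), miR-148b (0.90) and miR-23b (0.87). P2rx7-/- control replicate 3 was the lowest sample for each of these 8 miRNAs. This follows in part from choosing them for their likeness to miR-29b and miR-29c, which were lowest in the same sample. In that sample miR-98 was at −5.11, against −1.04 to 2.60 in the other 11 samples. Over all 335 miRNAs this sample was the lowest for 42 (12.5%) and the highest for 56 (16.7%), more often than any other sample but wt control replicate 1 (61 and 90). Without it the correlation with miR-29c was 0.98 for miR-98 and 0.89 to 0.91 for the other 4. The 5 were chosen over all 12 samples, so these values describe the likeness and do not test it.

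The passenger strands gave a second reading of the same hairpins. Passengers of miR-29a, miR-29b (from each of its hairpins) and miR-29c were read in all 12 samples, under the names hsa-miR-29a#, mmu-miR-29b#, hsa-miR-29b-2# and rno-miR-29c#, where # marks the passenger and the prefix the species the assay was named for. The miR-29c passenger level was −1.09, −0.86 and −0.75 in wt control samples and −1.11, −0.996 and −0.73 in P2rx7-/- control samples, so the groups overlapped. Its average FC was 0.975 ± 0.134 (SD, n = 3), and that of the miR-29a passenger 1.12 ± 0.19. Neither was called, and the log2 differences were −0.05 (95% interval from −0.75 to 0.66) and 0.15 (from −0.81 to 1.11).

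The miR-29b passengers were each moved by 1 sample. For mmu-miR-29b# the level in P2rx7-/- control samples was −3.95, −3.93 and −1.81, against −3.40, −3.37 and −4.07 in wt control samples. Its average FC of 1.70 was called up-regulated, as were 71 of the 335 miRNAs (21.2%), and without P2rx7-/- control replicate 3 it was 0.800. For hsa-miR-29b-2# the level in wt control samples was 1.77, −2.87 and −2.85, against −3.19, −2.82 and −2.71 in P2rx7-/- control samples. Its average FC of 0.335 was called down-regulated, and without wt control replicate 1 it was 0.987. P2rx7-/- control replicate 3 was thus the lowest sample for the miR-29b guide and the highest for mmu-miR-29b#.

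**Figure D3:**
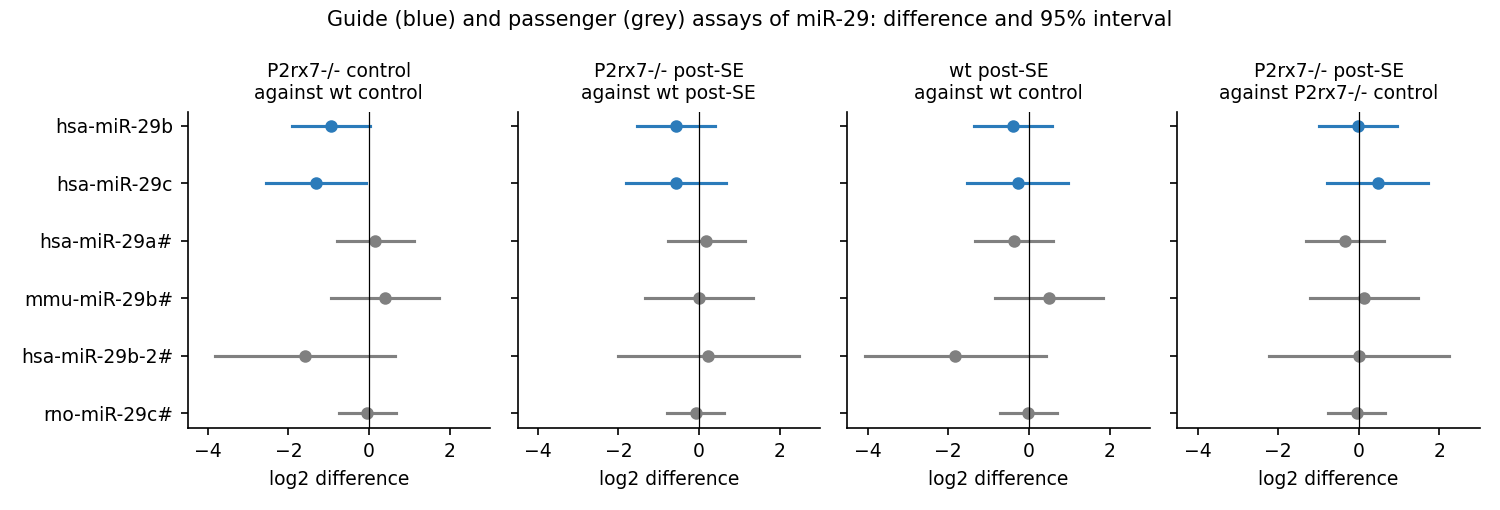
Log2 difference of the miR-29b and miR-29c guides (blue) and the 4 miR-29 passengers (grey) in the 4 comparisons, first group minus second, with the 95% interval from limma. Among the guides the interval of miR-29c in control samples, from −2.56 to −0.08, is the only one that leaves out 0, and no passenger interval does.

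The guide was also set against its passenger within each sample, as the Ct of the passenger minus that of the guide, in which the scaling of a sample cancels. For miR-29c this guide excess was 9.41, 8.24 and 8.16 log2 units in wt control samples and 8.10, 8.14 and 5.75 in P2rx7-/- control samples. The groups did not overlap, with the nearest samples at 8.16 and 8.14, and 2 of the 46 guide and passenger pairs (4.35%) lay lower in this way. The mean was 8.60 ± 0.70 (SD, n = 3) against 7.33 ± 1.37, a difference of −1.28 with a 95% interval from −2.93 to 0.38 (adjusted p = 0.721 by limma over the 46 guide and passenger pairs). Without P2rx7-/- control replicate 3 the difference was −0.49, and without wt control replicate 1 it was −0.87.

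For miR-29b over mmu-miR-29b# the guide excess was 6.73, 5.98 and 6.95 in wt control samples and 6.33, 6.43 and 2.91 in P2rx7-/- control samples. The groups overlapped, and the difference was −1.33, with an interval from −3.24 to 0.59 and an adjusted p of 0.721 by limma. Without P2rx7-/- control replicate 3 it was −0.17, and without wt control replicate 1 it was −1.24. Against hsa-miR-29b-2# the difference was 0.65 (interval from −1.56 to 2.86), and −0.70 without wt control replicate 1. After status epilepticus the genotype differences of the 3 pairs were −0.49, −0.58 and −0.80, with adjusted p-values of 0.975 by limma.

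**Figure D4:**
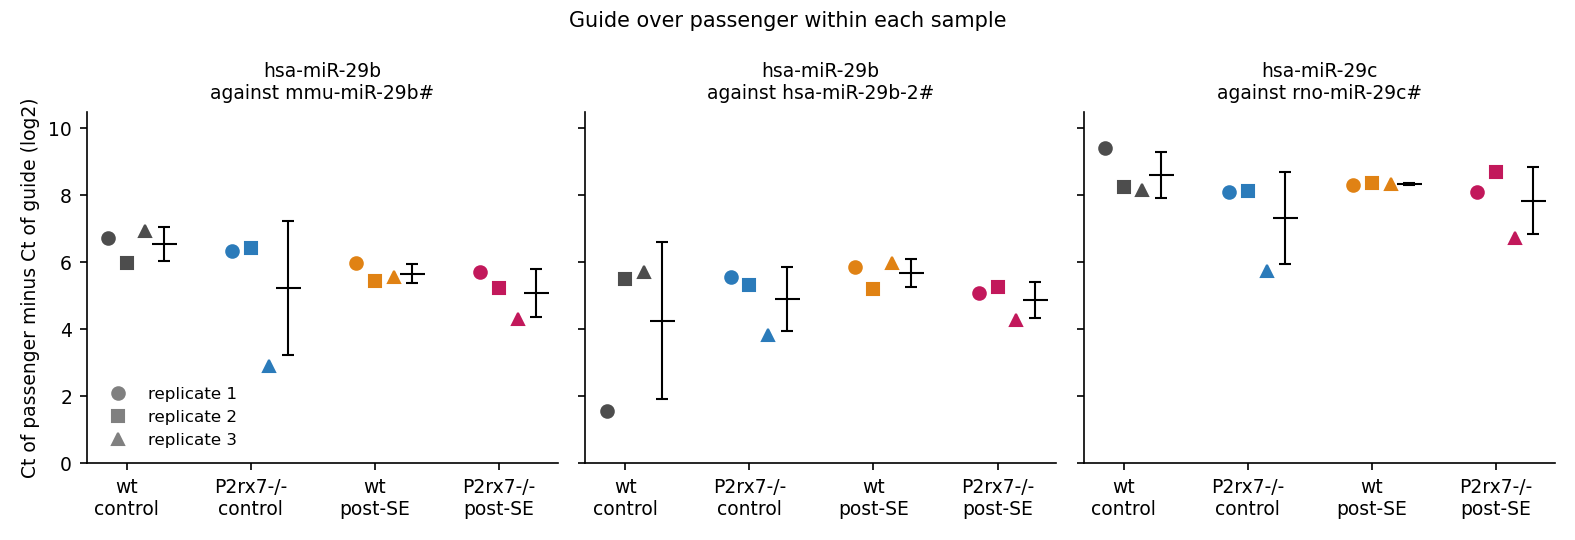
Guide excess over the passenger within each sample (Ct of passenger minus Ct of guide, log2 units) for the miR-29b guide against both miR-29b passengers and for miR-29c. Points are samples and bars the mean ± SD of 3 samples. P2rx7-/- control replicate 3 is low in the first and last panel, at 2.91 and 5.75, and wt control replicate 1 is low in the middle panel, at 1.56.

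Since the miR-29 family is rich in glia, marker miRNAs of cell classes, glial ones among them, were read beside it. For oligodendrocytes both miR-219 and miR-338-3p were analyzed, for microglia and other myeloid cells 4 of 6 matched assays (2 of miR-223, miR-142-3p and miR-155), for neurons 3 of 6 (miR-128a, miR-137 and miR-212) and for vessels 1 of 4 (miR-145). The 8 that were left out had a Ct in 8 to 11 of the 12 samples, and every matched assay was read in some samples. No list held markers of astrocytes, so the share of the miR-29 signal that came from them could not be checked.

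In P2rx7-/- control samples 1 of 2 oligodendrocyte markers was called up-regulated and 1 down-regulated, with a median log2 difference of −0.40 against wt control samples. Their summed level (linear scale) was 1.80 to 2.73 in P2rx7-/- control samples and 3.26 to 3.65 in wt control samples, without overlap. Of single miRNAs, 35 of 335 (10.4%) lay lower in this way. The sum merges markers called in opposite directions, so it does not show a decrease of both. miR-219, the example with the lower mean Ct of the pair, had an average FC of 1.503, just above the limit of 1.5. Its log2 difference was 0.56 ± 0.97 (SE). The marker calls were not repeated without wt control replicate 1, the sample that stood apart. The log2 level of miR-338-3p was 1.75 in this sample, 0.25 in wt control replicate 2 and 0.48 in wt control replicate 3. Since the sums of these samples lay close together, from 3.26 to 3.65, miR-219 was the lowest of the group in replicate 1. The up-regulated call of miR-219, just above the limit, therefore rests on 1 low wt control sample. How far the other marker calls rest on wt control replicate 1 is not known here. miR-338-3p, which like miR-219 acts in the maturation of oligodendrocytes, had an average FC of 0.393 and was singled out after its values were seen. The levels of miR-338-3p correlated with those of miR-29b at 0.69 and of miR-29c at 0.65 over the 12 samples, and those of miR-219 at −0.31 and −0.12. The part of oligodendrocyte RNA in the miR-29 values was not tested.

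Of the 4 myeloid assays, 1 was called up-regulated and 0 down-regulated in P2rx7-/- control samples, where the rule called 21.2% of all 335 miRNAs up-regulated and 15.5% down-regulated. Their median log2 difference was 0.21, and their summed level was 45.1 to 89.2 against 33.3 to 104.9 in wt control samples, with overlap. The example, miR-223, was at 1.19 of the wt control average. miR-155, an inflammation-induced miRNA singled out after its values were seen, was the myeloid assay called. Its average FC was 13.3, with a log2 difference of 1.53 ± 1.37 (SE). The average FC is an arithmetic mean far above what this log2 difference gives, so it does not describe all P2rx7-/- control samples alike. By individual qPCR the paper saw no change of miR-155 in control mice, and reported it raised in P2rx7-/- mice after status epilepticus. The miR-155 level correlated with that of miR-29b at −0.71 and of miR-29c at −0.75 over the 12 samples (−0.45 and −0.36 without P2rx7-/- control replicate 3). Of the 3 neuronal assays 1 was called up-regulated and 0 down-regulated, with a median of 0.36 and a summed level of 116.5 to 182.5 against 131.0 to 138.8, and the example, miR-212, was at 0.953. The vessel assay, miR-145, was called up-regulated with a log2 difference of 1.37 ± 0.95 (SE). It was at 27.6 to 44.8 against 3.83, 24.0 and 34.9 in wt control samples, with overlap, so the wt control average holds 1 low sample. Between the post-SE genotypes, 3 myeloid assays and 1 oligodendrocyte assay were called up-regulated, and no marker was called down-regulated, where the rule called 57 (17%) and 15 (4.48%) of all 335 miRNAs. The 3 myeloid calls were both assays of the same miR-223 and that of miR-155. miR-142-3p was not called, with a log2 difference of −0.10. The median log2 difference was 0.76 for the myeloid, 0.04 for the oligodendrocyte, −0.25 for the neuronal and −0.66 for the vessel list. The part of myeloid, neuronal and vessel RNA in the miR-29 values was not tested. No marker assay passed an adjusted p of 0.05 by limma in any of the 4 comparisons, and over all 335 miRNAs the median log2 difference between P2rx7-/- control and wt control samples was −0.02.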

How the data were processed

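The authors deposited Ct values of 653 OpenArray assay wells in 12 samples, not normalized, and a second table with a fold or ratio per assay and sample relative to 1 wt control sample. The deposited ratio was used only to check that both tables name the same samples, which held for all 12, and the number of columns not assigned to a sample was 0. How Ct values were called is not given in the sources used here. Of the wells, 619 were miRNA assays and the others snoRNA135, snoRNA202 and a plant control.

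A miRNA was analyzed when its Ct was below 28 in all 12 samples. The mean Ct of these 335 miRNAs was subtracted in each sample (ΔCt), and the FC was 2 to the power of minus ΔΔCt against the average of the reference group. An average FC above 1.5 or below 0.6 was called, as in the study's methods. In both genotype comparisons the paper reported fewer up- and down-regulated miRNAs than were called here, and the reason was not tested. limma 3.58.1 in R 4.3.3 was fitted to −ΔCt of all 12 samples with 1 coefficient per group, and p-values were adjusted over all 335 miRNAs (Benjamini-Hochberg, threshold 0.05). Exact permutation tests, correlations and guide and passenger differences used Python 3.11.15 with numpy 2.4.6, pandas 2.3.3 and scipy 1.17.1, and figures matplotlib 3.10.9. The scripts were tested on simulated data.

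Named miRNAs were the 3 members and their passengers, the 5 assays most like each member, and the marker lists. The members and all lists were chosen with earlier results of these data known. Each well was read once, so technical error is not known, and p-values measure the spread between pools. Alternatives were 4 other scalings, a Ct below 26, a Ct in at least 10 samples, a geometric mean, the methods' t-test as a further condition, limma on 6 samples or with other settings, a replicate block, and leaving out each sample.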

Additional observations from a re-analysis of the deposited data

How the results depend on the processing

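For P2rx7-/- control against wt control samples, 2 miR-29 members were called by the fold change rule, 0 with snoRNA135 scaling and 0 where the methods' t-test was a further condition, and 0 to 2 with each sample left out in turn, where 0 was found without P2rx7-/- control replicate 3 and 1 without wt control replicate 1. Between the genotypes after status epilepticus it was 0 in every setting but 1, without P2rx7-/- post-SE replicate 2 (range 0 to 1 over the samples left out). For P2rx7-/- post-SE against P2rx7-/- control samples, 0 members were called, 1 (miR-29c, FC 1.54) with snoRNA202 scaling and 0 to 1 with samples left out. For wt post-SE against wt control samples it was 0 throughout. The cause of these moves was not tested, other than that each rests on an average of 3 samples or on the scaling. No member passed an adjusted p of 0.05 in limma, in the permutation tests or in the guide and passenger comparison under any alternative. The lowest adjusted p of a member was 0.382 in limma (without wt control replicate 2), 0.272 in the permutation test of genotype (without wt post-SE replicate 1) and 0.225 for a guide against its passenger (without P2rx7-/- control replicate 3). The genotype difference in control samples kept its sign in all 21 alternatives for both members, from −1.19 to −0.48 for miR-29b and from −1.70 to −0.63 for miR-29c. Since all P2rx7-/- control samples lay below all wt control samples, leaving out 1 sample could hardly change this sign. The count of alternatives is therefore no test of the difference. Signs did change for other differences that passed no test, among them miR-29b between P2rx7-/- post-SE and P2rx7-/- control samples (7 of 21 alternatives), miR-29c in the same comparison (0.47, and −0.21 without P2rx7-/- control replicate 3) and miR-29b against hsa-miR-29b-2# in control samples (0.65, and −0.70 without wt control replicate 1).

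The replicate numbers were not taken to pair the samples, since 4 of 18 same-numbered pairs had a correlation of their deviations from the group means above 0.1. Of these 4, 3 link the replicates numbered 3 of all groups but wt control (0.277, 0.271 and 0.251), and 6 of 12 samples correlated best with their own number. For both members, replicate 3 was the lowest sample of each P2rx7-/- group and the highest of the wt post-SE group. What the replicates numbered 3 share was not tested, and leaving out 1 sample at a time does not remove it. With a replicate block in limma, the number of member differences past the threshold was 0, as without it, and the adjusted p in control samples was 0.678 for both members. Precision is limited by 3 pools a group and 1 well per assay. miR-29a, without a Ct in 9 of 12 samples, had no comparison.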
